A study of Rattus norvegicus with 56 samples.

Results

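The undrugged sham group of a Parkinson's disease drug study gave a reference profile of gene expression in the rat dorsal striatum. It held the 7 rats whose titles name sham surgery, saline treatment and saline conditioning, numbered 50 to 56, out of 56 rats in 8 groups of the series. The rats were male Crl:OFA (Sprague Dawley) animals. Both sides of the midbrain had been injected with an AAV vector carrying GFP, the control for the vector with alpha-synuclein that the lesioned groups received. From 5 weeks after surgery they were given daily subcutaneous saline for 3 weeks in place of L-dopa, and then saline before every session of a place conditioning test. The rats were killed after the final test, with 24 or 48 hours since their last dose of conditioning. The labels give neither the age of the rats, nor the promoter behind GFP, nor which rat had which interval. These animals are thus operated, injected and handled rats, not untouched ones, and no comparison with the other groups is made here.

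RNA of each rat was extracted alone, and 100 ng was labelled and hybridized to 1 Affymetrix Rat230_2 array, which reads the 3' end of transcripts. Values are log2 signals, on which a step of 1 is a 2-fold difference, and every ± is the SD over the 7 rats. Of the 31042 probe sets that are no array controls, 20826 carry 1 gene symbol, and these stand for 14217 genes. A gene with several probe sets was represented by the brightest one. Correlations between pairs of arrays, across genes above the 60th percentile of signal, ran from 0.978 to 0.988. The 3' minus 5' difference of the actin control probe sets, a sign of RNA fragmentation or short labelling products, was 1.96 ± 0.25 log2 units, with rat 53 highest at 2.30 and rat 55 lowest at 1.70.

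A gene was counted as bright above a mean of 8.17, the 75th percentile of all genes, so that 25.0% of all genes are bright by construction. It was counted as dim at or below 4.64, the 90th percentile of a list of 54 measured genes that belong to liver, pancreas, muscle, pituitary, retina, testis and other tissues, and 24.5% of all genes were dim. The remaining genes are called middle. The off-tissue list had a median of 2.99, and 6 of its members lay above the dim threshold, among them Acta1 (skeletal muscle actin) at 7.36 ± 0.06 and Alb (albumin) at 7.25 ± 0.34. Brightness also depends on how well each probe set binds its target. A class therefore describes the signal of a probe set and does not rank numbers of transcripts between genes. The same applies to a dim signal, which is no proof that a transcript was missing.

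The dorsal striatum is the input station of the basal ganglia. Nearly all of its neurons are GABA-releasing spiny projection neurons, which receive glutamate from cortex and thalamus and dopamine from the midbrain. Those of the direct pathway carry the D1 dopamine receptor with the peptides substance P and dynorphin, and those of the indirect pathway carry the D2 receptor with the A2a adenosine receptor and enkephalin. Few interneurons, which release acetylcholine or GABA, and a large population of glial cells make up the rest of the tissue.

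The 20 brightest probe sets belonged to genes of varied function. COX2 and COX1, cytochrome oxidase subunits encoded by the mitochondrial genome, gave 13.34 ± 0.14 and 13.15 ± 0.17. Tmsb4x (thymosin beta 4, an actin-binding peptide), Rps29, Rps23 and Rpl26 (ribosomal proteins) and Actg1 (actin) lay between 12.55 and 12.86. Of myelin genes, Mbp (myelin basic protein) gave 12.79 ± 0.15 and Mobp 12.49 ± 0.17. Neuronal genes among the 20 were Cpe (carboxypeptidase E, which trims peptide hormones), Ppp3ca (calcineurin A), Calm2 (calmodulin), Ndrg4, Snap25 (a fusion protein of synaptic vesicles) at 12.51 ± 0.12 and Pcp4, a calmodulin regulator, at 12.42 ± 0.05. Also in this set were Cst3, Zwint, Scd2, Gpm6b and Sparcl1, the last an extracellular protein of astrocytes at 12.49 ± 0.21.

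Both dopamine receptors of the spiny neurons were bright and the 3 others were dim. Drd1 ran from 10.49 through a median of 10.80 to 11.06, with a mean of 10.82 ± 0.17. Drd2 ran from 9.48 through 9.75 to 10.01, with a mean of 9.73 ± 0.21. The lowest rat was 51 and the highest was 55 for both genes. Drd4 (4.24 ± 0.15), Drd3 (3.67 ± 0.60) and Drd5 (2.17 ± 1.42) were all in the range of the off-tissue genes. Among adenosine receptors, Adora2a, the partner of Drd2 on indirect pathway neurons, was bright at 10.13 ± 0.23, whereas Adora1 (7.64 ± 0.11) and Adora2b (6.13 ± 0.19) were middle.

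Most receptor genes were middle or dim. Of 150 listed receptor genes 135 were measured, and 23 of these (17.0%) were bright and 62 dim, against 25.0% and 24.5% of all genes. None of the 14 muscarinic and nicotinic acetylcholine receptors was bright. Chrm3 (7.06 ± 0.20) and Chrm4 (5.22 ± 0.23), the muscarinic receptor of direct pathway neurons, were middle, and Chrm1 was dim at 2.66 ± 1.84 although spiny neurons are known to carry it. Of the opioid receptors, Oprk1 (kappa) was middle at 6.94 ± 0.42 (4.81 with the median of its probe sets), Oprl1 (nociceptin) gave 5.34 ± 0.29, and Oprm1 (mu, 3.64 ± 0.77) and Oprd1 (delta, 1.17 ± 1.12) were dim. The mu receptor is known to be confined in this tissue to patches called striosomes.

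Cnr1, the CB1 cannabinoid receptor of spiny neuron terminals, was bright at 11.09 ± 0.31. Its signal ran from 10.56 in rat 54 through a median of 11.23 to 11.39 in rat 50, and its mean was 8.50 with the median of its probe sets. Gpr6, an orphan receptor of indirect pathway neurons, was bright at 8.34 ± 0.27, and Cnr2, the receptor of immune cells, was dim at 1.95 ± 1.38. Of 13 serotonin receptors only Htr2c was bright (10.50 ± 0.21). Htr4 gave 6.58 ± 0.22, Htr2a 5.65 ± 0.27 and Htr1b 4.77 ± 0.30, and Htr6, a receptor known in spiny neurons, was dim at 2.50 ± 1.28. Hrh3, the histamine receptor that inhibits transmitter release, was the only bright member of the 12 adrenergic and histamine receptors (9.21 ± 0.15). Adra2c, an adrenergic receptor of striatal neurons, was middle at 6.94 ± 0.24. Of 26 peptide receptors, Ntsr2 (a neurotensin receptor of astrocytes, 10.22 ± 0.25) and Adcyap1r1 (the PACAP receptor, 9.14 ± 0.24) were bright and 14 were dim, with Oxtr, the oxytocin receptor, lowest at -0.58 ± 0.98. Ntrk2, the receptor of BDNF, was bright at 10.27 ± 0.11. Ntrk3 (7.48 ± 0.18) and Ret, the signalling receptor for GDNF (5.65 ± 0.50), were middle.

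Fast glutamate receptors were represented by AMPA subunits above all. Gria2, the subunit that limits calcium entry, gave 11.67 ± 0.10, Gria3 10.69 ± 0.08 and Gria1 8.62 ± 0.16, while Gria4 was just under the bright threshold at 8.12 ± 0.13. The NMDA subunits Grin2c (7.96 ± 0.18), Grin2b (7.74 ± 0.18), Grin1 (7.61 ± 0.14) and Grin2a (7.45 ± 0.33) were middle, and Grin2d was dim at 3.42 ± 0.60. Grik2, a kainate receptor subunit, was bright at 8.65 ± 0.15. Of the metabotropic receptors, Grm5, which couples to calcium release in spiny neurons, gave 9.07 ± 0.06 and was among the steadiest receptors between rats, and Grm3 gave 9.14 ± 0.21. Inhibitory receptors held 7 bright members of 21. These were the GABA-B subunits Gabbr1 (10.48 ± 0.14) and Gabbr2 (9.09 ± 0.28), the glycine receptor beta subunit Glrb (9.97 ± 0.11), and the GABA-A subunits Gabrb1, Gabrb2, Gabrd and Gabra5. Gabra4, a subunit of striatal GABA-A receptors outside the synapse, varied most of the receptors above the 60th percentile of signal. It ran from 6.69 in rat 53 through 7.15 to 7.85 in rat 55.

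Peptide precursors of the spiny neurons were among the bright genes. Penk, the precursor of enkephalin in indirect pathway neurons, ran from 12.00 through 12.13 to 12.36, with a mean of 12.15 ± 0.11. Tac1, which encodes substance P in direct pathway neurons, ran from 9.99 through 10.57 to 10.88. Pdyn, the dynorphin precursor of the same neurons, ran from 9.72 through 9.88 to 10.29, and was 8.03 with the median of its probe sets, under the threshold of 8.17 though above the one that this setting gives (7.63). Rat 55 was highest for each of the 3 precursors. Tac3 (neurokinin B, 6.39 ± 0.33) and Pnoc (nociceptin precursor, 5.30 ± 0.35) were middle, and Pomc, the hypothalamic opioid precursor, was dim at 2.05 ± 1.07.

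Other bright precursors were Cck (cholecystokinin, 10.49 ± 0.27), Npy (neuropeptide Y of interneurons, 9.41 ± 0.16), Vgf (9.00 ± 0.29) and the granins Chgb, Scg2 and Chga, which pack peptides into granules. Sst (somatostatin, from the same interneurons as Npy) was middle at 7.95 ± 0.15, as were Nts (neurotensin, 7.14 ± 0.29), Vip (7.06 ± 0.57) and Bdnf (6.00 ± 0.24). Of peptides known from the hypothalamus, Hcrt (orexin, 3.80 ± 1.02), Avp (vasopressin, 3.35 ± 1.27) and Pmch (4.46 ± 0.50) were dim, and Crh (5.03 ± 0.17), Oxt (oxytocin, 4.88 ± 0.65) and Trh (4.74 ± 0.38) were middle. Of 6 measured genes for peptide processing 4 were bright, led by Cpe at 12.74 ± 0.12 and Scg5, a chaperone of a prohormone convertase, at 11.80 ± 0.05. Over all 39 measured peptide genes, 13 (33.3%) were bright and 8 dim.

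Ion channels were spread over all classes, with 23 of 82 (28.0%) bright and 23 dim. Scn4b, a sodium channel beta subunit known to be rich in striatum, gave 12.20 ± 0.10, and Scn2b, Scn3b, Scn2a, Scn1a and Scn3a were bright as well. Sodium channels of muscle (Scn4a, 0.93 ± 0.82) and of sensory neurons (Scn10a, 2.83 ± 1.39, and Scn11a, 2.24 ± 1.08) were dim. Voltage-gated potassium channels held 13 bright members of 32, among them Kcnab1 (a beta subunit, 11.57 ± 0.15), Kcnd2 (the A-type channel Kv4.2, 10.30 ± 0.18), Kcnq5 (an M-type channel, 9.88 ± 0.14) and Kcna4 (9.58 ± 0.21). Kcnk2, a leak channel, was the only bright member of the 16 inward rectifier and leak channels (9.72 ± 0.19). Kcnj4, an inward rectifier of spiny neurons, was middle at 7.78 ± 0.30, and Kcnj2 was dim at 3.15 ± 1.13. Among calcium channel genes the auxiliary subunits Cacna2d3 (10.42 ± 0.10), Cacna2d1 (9.06 ± 0.04) and Cacnb2 (8.51 ± 0.06) were bright. The pore subunits Cacna1b (N type, 8.09 ± 0.08), Cacna1c (6.95 ± 0.06) and Cacna1d (6.86 ± 0.23, both L type) were middle, and the skeletal muscle pore subunit Cacna1s was dim at -0.14 ± 0.70.

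Signalling enzymes held the largest share of bright genes among the receptor, peptide, channel, enzyme and transcription factor classes, 51 of 116 (44.0%), with 20 dim. In dopamine signalling, D1 receptors raise cAMP through the G protein subunit encoded by Gnal and the adenylyl cyclase encoded by Adcy5, and protein kinase A then phosphorylates DARPP-32, the product of Ppp1r1b. Of 27 measured genes of this pathway 22 were bright and none was dim. Gnal gave 8.87 ± 0.19, Adcy5 9.23 ± 0.12 and Ppp1r1b 10.27 ± 0.12, and the kinase subunits Prkacb and Prkar1a gave 11.40 ± 0.11 and 11.28 ± 0.04. Of the 2 Adcy5 probe sets the other was dim at 1.38, and with the median of its probe sets Adcy5 gave 5.30, which is middle. Arpp21, a further cAMP-regulated phosphoprotein, gave 12.20 ± 0.08. Ptpn5, the striatal tyrosine phosphatase STEP, gave 10.27 ± 0.17.

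Cyclic nucleotide breakdown was represented by 4 bright phosphodiesterases of 17. Pde10a, the enzyme of spiny neurons, gave 11.18 ± 0.17, Pde1b, which calmodulin activates, gave 10.85 ± 0.13, and Pde2a and Pde4b gave 10.38 ± 0.14 and 9.40 ± 0.16. Pde7b, also described in striatum, was dim at 1.07 ± 0.47 and Pde5a at 1.80 ± 1.39. Of 15 regulators of G protein signalling 5 were bright: Rgs4, Rgs9, Rgs2, Rgs10 and Rgs7. Rgs9, whose long form acts on D2 receptor signals, gave 10.30 ± 0.15, and Rgs4 gave 10.30 ± 0.21. All 21 measured kinases and exchange factors of calcium and Ras signalling were bright or middle, with Prkcb (protein kinase C beta) at 11.99 ± 0.07, Camk2b at 11.20 ± 0.08 and Camk2a at 10.61 ± 0.32.

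Enzymes and carriers of transmitters fell in all 3 classes. Gad1, which makes GABA, gave 11.58 ± 0.09, and Gad2 was middle at 6.83 ± 0.18. Slc32a1, which loads GABA into vesicles, gave 8.98 ± 0.26, while Slc6a11 and Slc6a13, GABA carriers of the cell membrane, were dim at 4.03 ± 0.21 and 3.42 ± 1.08. Chat, the acetylcholine-making enzyme of cholinergic interneurons, was middle at 6.35 ± 0.23, as was the choline carrier Slc5a7 at 7.96 ± 0.13. Of genes for dopamine and noradrenaline axons, whose cell bodies lie outside the striatum, the following were dim: Th (tyrosine hydroxylase) at 3.85 ± 0.62, Dbh at 3.52 ± 0.53, Slc6a3 (the dopamine transporter) at 4.13 ± 0.51 and Slc18a2 (the vesicular monoamine transporter) at 4.43 ± 0.36. Ddc, which makes dopamine from L-dopa, and Aldh1a1, an aldehyde dehydrogenase, were middle at 6.53 ± 0.26 and 6.95 ± 0.22. Maob and Maoa, which break down monoamines, were bright at 9.87 ± 0.08 and 9.30 ± 0.12. Slc17a7, the vesicular glutamate transporter of cortical neurons, was middle at 6.89 ± 0.42, and Slc17a6, that of thalamic neurons, gave 6.30 ± 0.33.

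**Figure D1:**
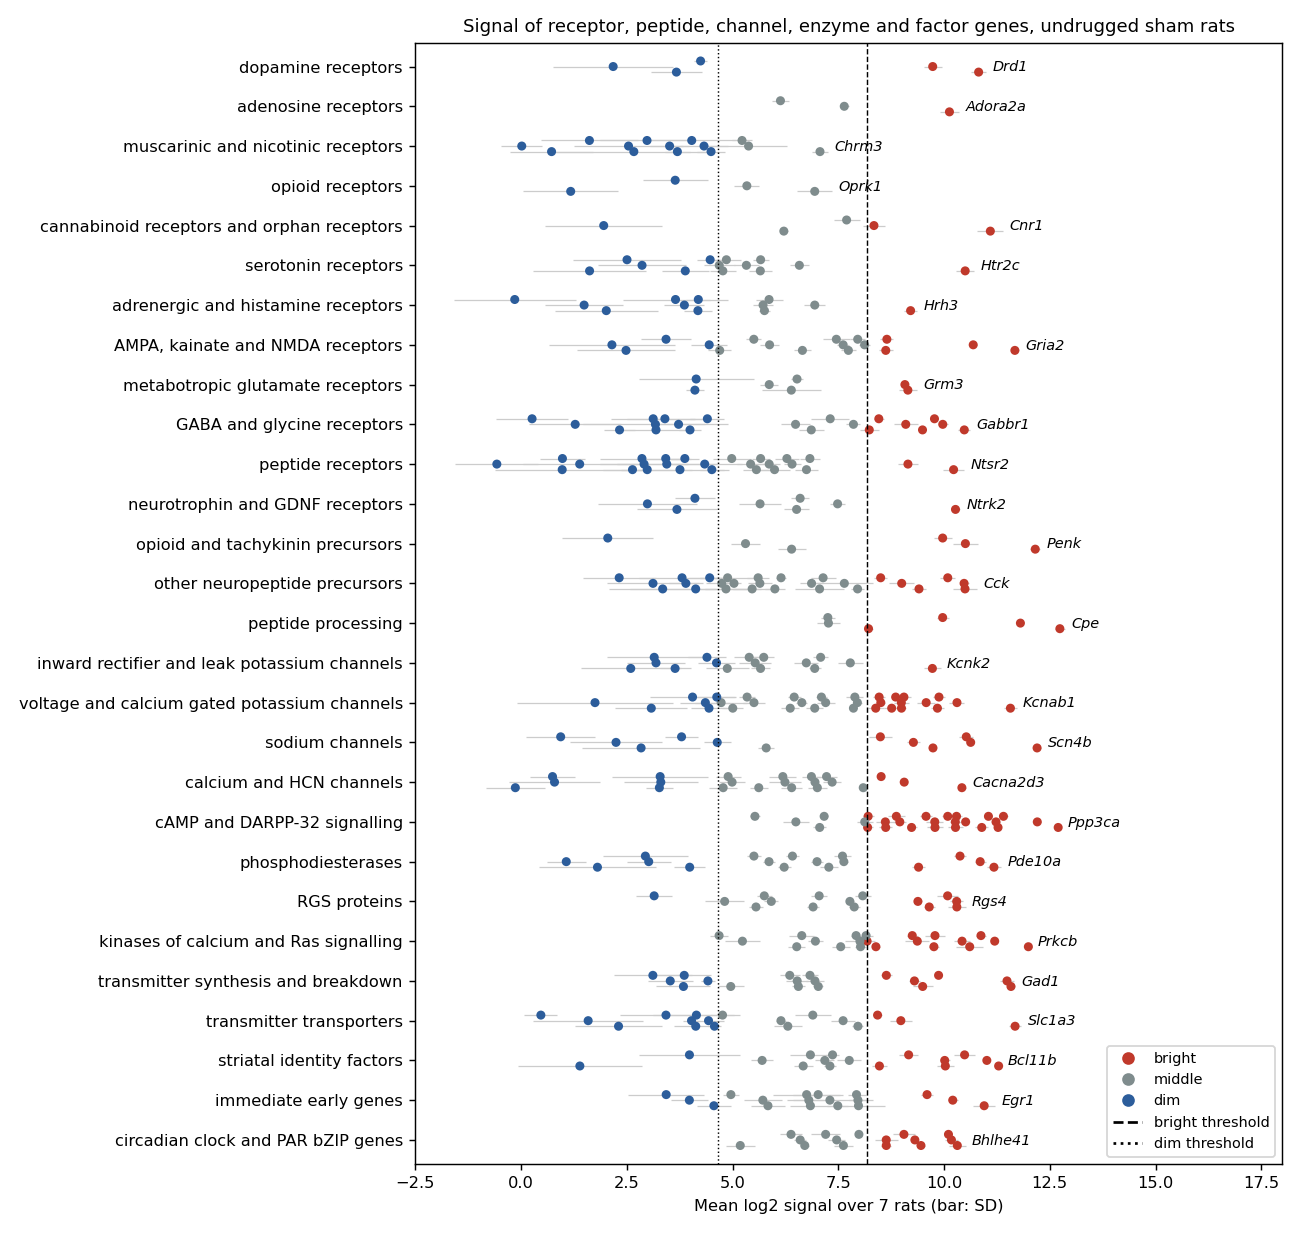
Mean log2 signal over the 7 undrugged sham rats (horizontal axis; bars are the SD between rats) for the measured genes of each receptor, peptide, channel, enzyme and transcription factor list. Red points are bright (above 8.17, dashed line), blue points dim (at or below 4.64, dotted line) and grey points middle; the brightest gene of each list is named, and no acetylcholine or opioid receptor reaches the bright range.

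Transcription factors that specify spiny neurons were well represented. Of 16 measured striatal identity factors 7 were bright: Bcl11b (Ctip2, 11.29 ± 0.07), Meis2 (11.01 ± 0.06), Mef2c, Rarb (a retinoic acid receptor, 10.03 ± 0.20), Foxp1 (10.01 ± 0.11), Foxp2 and Rxrg. Isl1, a factor of direct pathway and cholinergic neurons, was middle at 5.70 ± 0.26. All 16 measured clock genes were bright or middle. The output factors Hlf (10.10 ± 0.08), Tef (9.45 ± 0.10) and Dbp (9.05 ± 0.26) and the clock factors Nr1d2 (10.17 ± 0.15), Npas2 (9.31 ± 0.08) and Per2 (8.63 ± 0.27) were bright, and Clock (7.99 ± 0.08) and Bmal1 (6.70 ± 0.09) were middle with a small spread.

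Marker genes were set against the labelled tissue. Genes shared by both kinds of spiny neuron were bright in 13 of 15, with a median of 10.27 over the list, and the direct and indirect pathway lists were bright in 5 of 9 and 4 of 5 with no dim member. Astrocyte genes were bright in 12 of 15, led by Gja1 (a gap junction protein, 12.25 ± 0.11) and S100b (12.24 ± 0.10), and oligodendrocyte genes in 11 of 15. Slc1a2, the main glutamate carrier of astrocytes, was only middle (6.14 ± 0.12) and Olig2, a factor of the oligodendrocyte line, was dim (3.64 ± 0.78), which are 2 cases where the class differs from the known abundance of the gene. Microglial genes were mostly middle (12 of 15), with Ctss (a protease, 10.90 ± 0.31), C1qa (8.86 ± 0.40) and P2ry12 (8.18 ± 0.43) bright. Vessel genes were middle in 12 of 15 and bright in 3, Slco1a4, Cldn5 (the tight junction protein claudin 5, 9.46 ± 0.08) and Slco1c1.

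Rare and foreign cell types were fainter. No cholinergic marker was bright, and Slc18a3, the vesicular acetylcholine transporter, was dim at 4.14 ± 1.02. Of 9 GABA interneuron markers, Cck and Npy were bright, and Pvalb (parvalbumin) was middle at 6.83 ± 0.34. Among 11 genes of midbrain dopamine neurons none was bright, 5 were middle and 6 dim. Middle were Nr4a2 (7.96 ± 0.20), a factor of these neurons that other neurons also make, Aldh1a1, Sncg, Ddc and Ret, and the factors Pitx3 (0.43 ± 1.00), En2 and Foxa2 were dim. Choroid plexus and ependyma markers were bright for Enpp2 (10.36 ± 0.20), which oligodendrocytes also make, and Rarres2, middle for Ttr (transthyretin), and dim for Kl (2.06 ± 0.89). Ttr ran from 5.81 in rat 52 through 7.31 to 7.73 in rat 54. Leptomeningeal genes were bright in none of 12. Hbb, a globin of red blood cells, was bright at 10.53 ± 0.21, and the leukocyte genes Cd3e, Cd79b and S100a8 were dim. Among cortical projection neuron genes, Sv2b (a vesicle protein, 12.31 ± 0.26), Nptx1 and Lamp5 were bright. The cortical transcription factors Neurod6 (7.27 ± 0.28), Fezf2, Neurod2 (6.05 ± 0.49) and Cux2 were middle, and Tbr1, a factor of deep cortical layers, was dim at 0.90 ± 1.11. A lower number of cells of a type and less RNA per cell cannot be told apart in such bulk tissue.

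**Figure D2:**
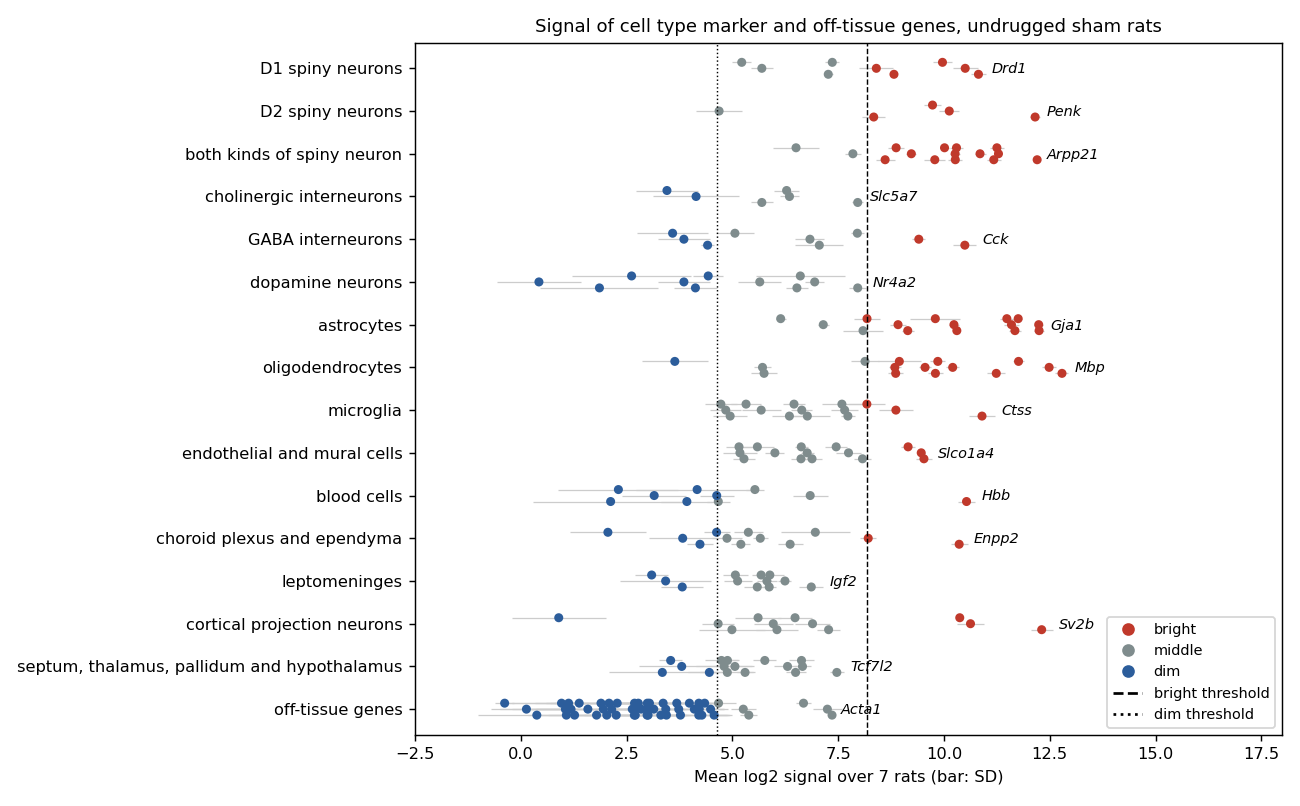
Mean log2 signal over the 7 rats (horizontal axis; bars are the SD) of markers of each cell type and of 54 off-tissue genes, coloured as bright (red), middle (grey) or dim (blue), with thresholds at 8.17 (dashed) and 4.64 (dotted). Spiny neuron, astrocyte and oligodendrocyte lists lie mostly in the bright range, and 48 of the 54 off-tissue genes are dim.

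The spread between rats fell with signal. The median SD was 0.11 for bright genes, 0.19 for middle genes and 0.74 for dim genes, that is, a typical bright gene differed between rats by 1.08-fold for 1 SD and a typical dim gene by 1.67-fold. Genes were therefore ranked for variation only above the 60th percentile of signal (7.27), where 5687 genes had a median SD of 0.12. Of these, 15 had an SD above 0.5. The 40 most variable genes ended at an SD of 0.41, and the next gene outside had the same rounded value. They were spread over cell types: immediate early genes of activated neurons, stress and metal response genes, glial and microglial genes, and neuronal surface proteins. Since they were chosen by their spread, the values that follow are a description.

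**Figure D3:**
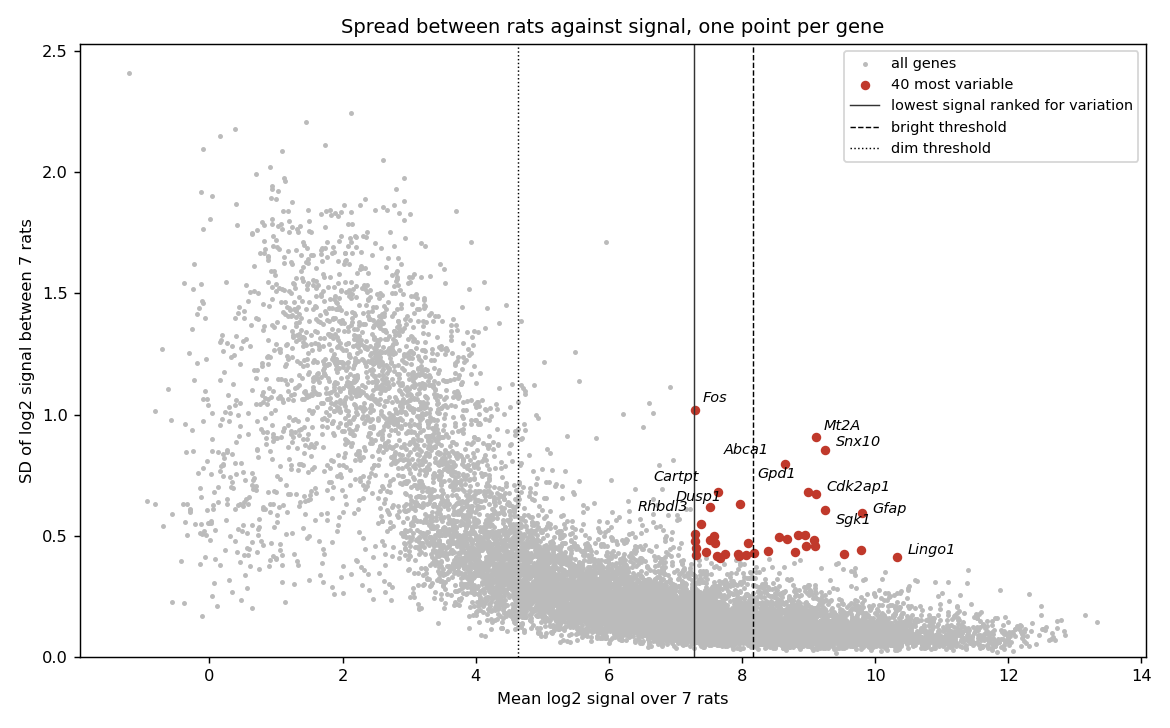
SD of the log2 signal between 7 rats (vertical axis) against the mean log2 signal (horizontal axis), 1 point per gene; red points are the 40 most variable genes above the solid line at 7.27. Dashed and dotted lines are the bright and dim thresholds. Dim genes scatter most, and Fos, Mt2A, Snx10 and Abca1 stand above the other genes to the right of the solid line.

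Fos, the AP-1 factor that neurons switch on within minutes of activity, varied most, with an SD of 1.02. Its mean of 7.30 lay just above the ranking limit of 7.27. Without rat 53 the mean was 6.98, below that limit, and the SD was 0.63. With each rat left out in turn, Fos stayed among the most variable genes in 5 of 7 cases, so its rank depends on which rats are included. Its signal was 6.22 in rat 55, 7.09 at the median and 9.21 in rat 53, a 7.93-fold range, and rat 56 was the next highest at 8.03. Rat 53 was also the highest for Dusp1 (a phosphatase that switches off MAP kinases; 7.00 to 9.01), Arc (a synaptic protein; 5.76 to 8.12), Egr2 (6.58 to 8.22) and Nr4a1 (6.24 to 7.59). Egr1, which was bright on average (10.95 ± 0.25), reached 11.40 in rat 53 against a median of 10.96.

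Over the 15 immediate early genes that were not dim, 11 had their highest value in rat 53, and 14 lay there above their mean. Over all 5687 ranked genes, 23 lay more than 0.5 above their median in rat 53 and 38 more than 0.5 below. The share of all genes that were highest in each rat is not given here, so such list counts lack that baseline. The mean deviation of the list from the gene means was 0.64 in rat 53, 0.14 in rat 56 and -0.29 in rat 52, the lowest. Rat 53 also had the highest actin 3' minus 5' difference of the 7, 2.30 against 1.70 to 2.19 in the others. Cortical projection neuron genes were highest in it too (mean deviation 0.30, 11 of 11 above their mean). The part of either in the pattern was not tested. Fosb (4.96 ± 0.19), whose stable form builds up under chronic drugs, was middle and near the dim threshold.

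Promoters of 2 of the genes highest in rat 53, Dusp1 and Nr4a1, are shown because such genes are known to be induced through CREB, a factor that cAMP and calcium activate. They were chosen for their matches, and the other genes high in rat 53 are not shown. CREB binds the cAMP response element TGACGTCA or the shorter TGACG that it contains. Sequences are the 250 bases before the transcription start from RefSeq (build GRCr8), on the strand of the gene, and capitals mark TGACG or its reverse CGTCA.
Dusp1 (chr10:17184603-17184852, plus strand): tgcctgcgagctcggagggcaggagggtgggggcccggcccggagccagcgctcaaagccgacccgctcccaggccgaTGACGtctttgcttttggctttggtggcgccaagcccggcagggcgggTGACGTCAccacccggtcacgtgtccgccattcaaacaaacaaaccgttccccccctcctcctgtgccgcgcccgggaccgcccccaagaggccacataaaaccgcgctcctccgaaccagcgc
Nr4a1 (chr7:134259888-134260137, plus strand): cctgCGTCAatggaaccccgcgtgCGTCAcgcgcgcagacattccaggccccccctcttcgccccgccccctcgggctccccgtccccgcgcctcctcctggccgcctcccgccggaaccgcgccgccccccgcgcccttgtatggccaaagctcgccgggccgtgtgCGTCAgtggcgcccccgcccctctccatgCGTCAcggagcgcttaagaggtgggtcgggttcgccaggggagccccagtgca
In Dusp1 the whole 8-base element lies 124 to 117 bases before the start, and its TGACG and CGTCA overlap, with 1 more TGACG at 172 to 168. Nr4a1 holds 4 matches, at 246, 226, 82 and 53 bases before the start by their first base. Of 33469 windows of that length 0.173% hold 4 or more, but Nr4a1 was chosen for its matches. The whole element was in 1.59% of all windows and TGACG on either strand in 18.2%. Of the 18 measured immediate early genes 13 had such a window, and 10 of these held TGACG and 3 the whole element (Dusp1, Ier2 and Jund). The same 13 windows also held the core of the metal response element, spelled out for Mt2A below, in 7 (53.8%, against 20.6% of all windows). A match describes letters and does not show that a factor was bound.

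Rat 54 stood apart from the other 6 in a limited set of genes. Over the ranked genes its median absolute deviation from the gene median was 0.079, against 0.078 in rat 51 and 0.056 to 0.070 in the rest. Of the 40 most variable genes, 13 were highest in rat 54. Over all 5687 ranked genes it was far from the others for 95, followed by rat 53 with 73 and rat 51 with 65, and the lowest was rat 52 with 24. In all, 362 of the 5687 genes (6.37%) had a rat far from the others. A rat counted as far where its gap to the nearest rat as a share of the whole range exceeded the Dixon limit (95%) for 7 values. Its correlation with the other arrays was 0.979 on average, the lowest, against 0.982 to 0.985 in the others. Its actin 3' minus 5' difference, 1.78, lay within the range of the group. Without rat 54, 25 of the 40 genes stayed among the 40 most variable.

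Mt2A was 1 of the 40 most variable genes and was highest in rat 54. It encodes a metallothionein that binds zinc and copper and that glucocorticoids and metals induce. Its signal ran from 8.21 through 8.96 to 11.06 in rat 54, 4.30-fold over the median. Gpd1 (glycerol phosphate dehydrogenase of oligodendrocytes) ran from 8.58 through 8.74 to 10.51, and Sgk1, a kinase that glucocorticoids induce, from 8.53 through 9.07 to 10.49. The signal of Vim, an intermediate filament of reactive astrocytes and vessels, was 9.76 in rat 54 and at most 8.77 in the other rats. Gfap, the filament of astrocytes, was high in rats 54 and 55 (10.59 and 10.55) and 9.17 in rat 50.

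Most microglial genes were high in the same animal. C1qb, a complement subunit, ran from 7.16 through 7.48 to 8.59, and Lyz2, the lysozyme of macrophages and microglia, from 8.22 through 8.35 to 9.63. Of 15 microglial markers 10 were highest in rat 54 and 12 lay above their mean, and the mean deviation of the list was 0.42, against -0.15 to 0.03 in the others. Over all 5687 ranked genes, 43 lay more than 0.5 above their median in rat 54 and 42 more than 0.5 below. S100a8 and S100a9, neutrophil genes that are dim on average, were 5.92 and 7.26 in rat 54 and at most 2.70 and 4.39 in the others; both were picked out after their values were seen. The 4 blood cell genes that were not dim, globins among them, all lay below their mean there (mean deviation -0.34, the lowest of the 7 rats), and Cd79b, a dim B cell gene, was lowest there. Of the same 15 microglial markers 3 went the other way and were lowest in rat 54. They included P2ry12, a receptor of resting microglia (7.45, median 8.09). Genes lowest in rat 54 also included Cdk2ap1 (7.63 against a median of 9.32), Rhbdl3 (6.48 against 7.77), Ifi27 (8.91 against 9.99) and Opalin, a myelin gene (8.12 against 8.97).

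For Mt2A the metal response element was looked for, whose core is TGCGCNC or TGCACNC. In the 250 bases before its start, capitals mark each core on either strand.
Mt2A (chr19:10838709-10838958, minus strand): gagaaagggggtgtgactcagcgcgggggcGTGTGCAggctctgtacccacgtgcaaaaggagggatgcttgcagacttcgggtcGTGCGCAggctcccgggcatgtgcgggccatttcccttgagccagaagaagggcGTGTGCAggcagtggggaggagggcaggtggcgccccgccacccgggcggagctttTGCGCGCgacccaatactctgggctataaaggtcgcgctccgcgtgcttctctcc
It holds 4 cores, whose first bases lie 220, 165, 111 and 55 bases before the start, and TATAAA at 31 to 26. At least 1 core stood in 20.6% of all windows, and 4 or more in 0.266%. The element was chosen for this gene, a metallothionein gene, so the small share is no test. Of the 40 most variable genes 28 had such a window, and 9 of these (32.1%) held a core.

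Rats 55 and 56 were low in a set of neuronal genes. Nrn1 (neuritin) ran from 8.02 in rat 56 through 8.98 to 9.13, and Nptxr (a receptor of neuronal pentraxins) from 7.75 in rat 55 through 8.45 to 8.85. Mfsd4a, Plcxd2, Tmem196 and Fam81a were likewise lowest in these 2 rats. Lingo1, which restrains axon growth and myelination, was bright and ran from 9.80 in rat 56 through 10.50 to 10.73, but was middle with the median of its probe sets.

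The same rats were lowest in genes of cortical projection neurons and highest in those of spiny neurons. Slc17a7 was 6.38 and 6.22 in rats 55 and 56 and 7.00 to 7.27 in the other 5, so that these 2 rats did not overlap the others. Over the 11 cortical genes that were not dim, the mean deviation was -0.42 in rat 55, -0.50 in rat 56 and 0.04 to 0.30 in the rest, and all 11 lay below their mean in rat 55. Over the 15 genes shared by spiny neurons it was 0.19 and 0.15 in rats 55 and 56, with 14 of 15 above their mean in each, and -0.17 to 0.05 in the rest. Over all 5687 ranked genes, 11 and 8 lay more than 0.5 above their median in rats 55 and 56, and 39 and 31 more than 0.5 below. That is another measure than the list counts. The share of all genes above or below their mean in each rat is not given here, so those counts lack that baseline. All 5 indirect pathway genes were highest in rat 55. Other neuronal lists differed in these rats too. The 6 GABA interneuron genes that were not dim deviated by -0.37 and -0.19 in rats 55 and 56, with none above its mean in rat 55. The 5 such genes of dopamine neurons deviated by -0.31 and -0.38, with medians of -0.13 and -0.32. Their mean deviation was also negative in rats 52 and 53 (-0.13 and -0.18), and they include Sncg, whose SD was 1.05. The 4 cholinergic genes deviated by 0.33 in rat 55 and 0.10 in rat 56, all above their means. Rats 55 and 56 also had the lowest actin 3' minus 5' differences, 1.70 and 1.72, followed by rat 54 at 1.78, and the part of this in the pattern was not tested.

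**Figure D4:**
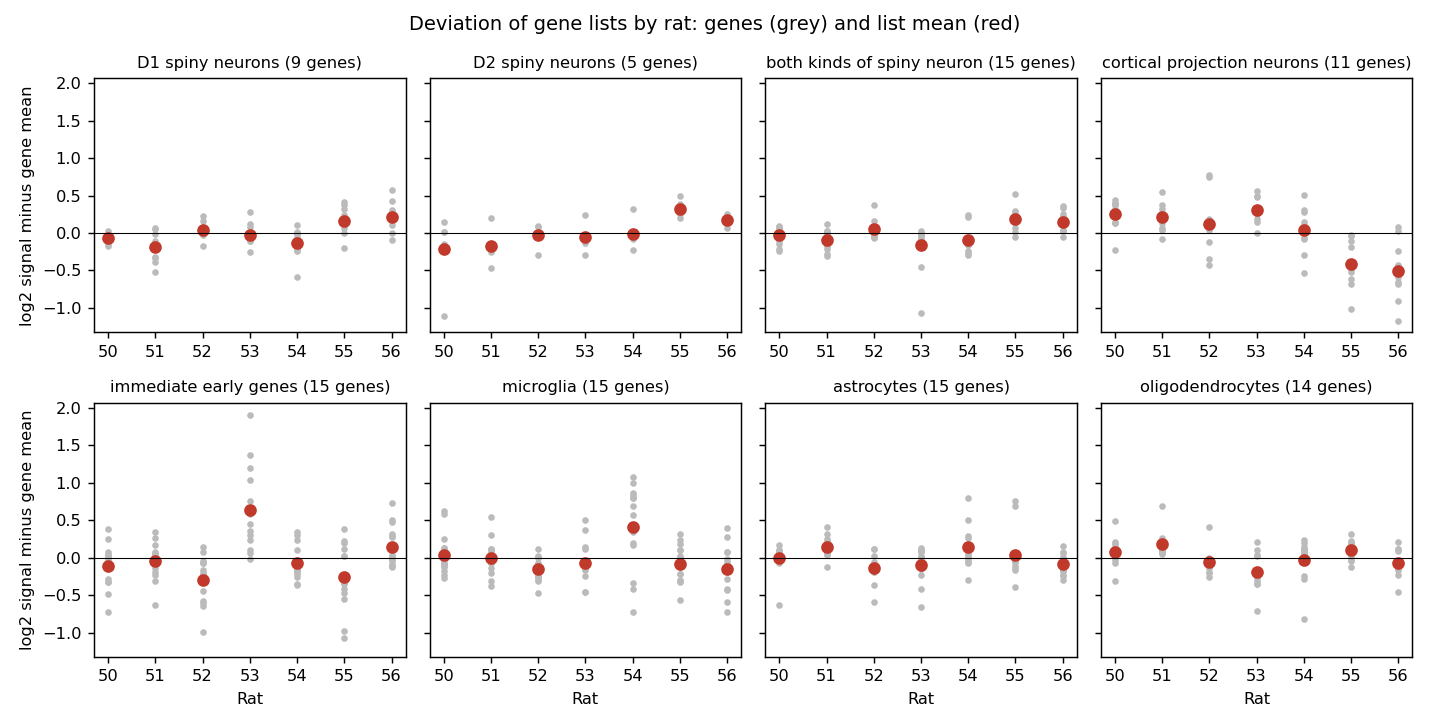
Deviation of each gene from its mean over the 7 rats in log2 units (vertical axis) by rat (horizontal axis), for 8 lists; grey points are genes that were not dim and red points the mean of the list. Immediate early genes stand up in rat 53 (0.64), microglial genes in rat 54 (0.42), and cortical genes drop in rats 55 and 56 (-0.42 and -0.50) where spiny neuron genes are above 0.

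Further variable genes had these values. Snx10, a sorting nexin, was 7.99 and 8.29 in rats 55 and 56, its lowest, and 9.20 to 10.38 in the others, and its second probe set moved with the first (r = 0.92 over the 7 rats). Abca1, the cholesterol exporter, was low in rats 53 and 50 (7.39 and 7.64) and between 8.85 and 9.33 in the others, and the next brightest of its 4 probe sets followed (r = 0.99). Cartpt, a peptide precursor, was 6.26 in rat 50 and 7.52 to 8.45 in the others. Elavl1, an RNA-binding protein, was 8.63 in rat 56 and at least 9.54 elsewhere, but its next brightest probe set (mean 7.25) did not follow (r = -0.13).

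Of the 40 genes only Pnma8b and Fam81a had another probe set above the same signal limit, with r = 0.69 and 0.85 to the first. The median r was 0.31 over the 885 ranked genes with such a second probe set, so probe sets of 1 gene often differed in their pattern between rats. The second probe set of Fos was dim (2.63) and ran against the first (r = -0.77). Other second probe sets below the signal limit, some of them dim, went both ways. Those of Elavl1, Dusp1, Lingo1 and Rhbdl3 did not follow the first (r = -0.13 to -0.01), and that of Hapln2 ran against it (-0.71). Those of Plcxd2 (0.97), P2ry12 (0.92) and Man1a1 (0.79), among others, did follow. For most of the 40, the difference between rats thus rests on 1 probe set.

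**Figure D5:**
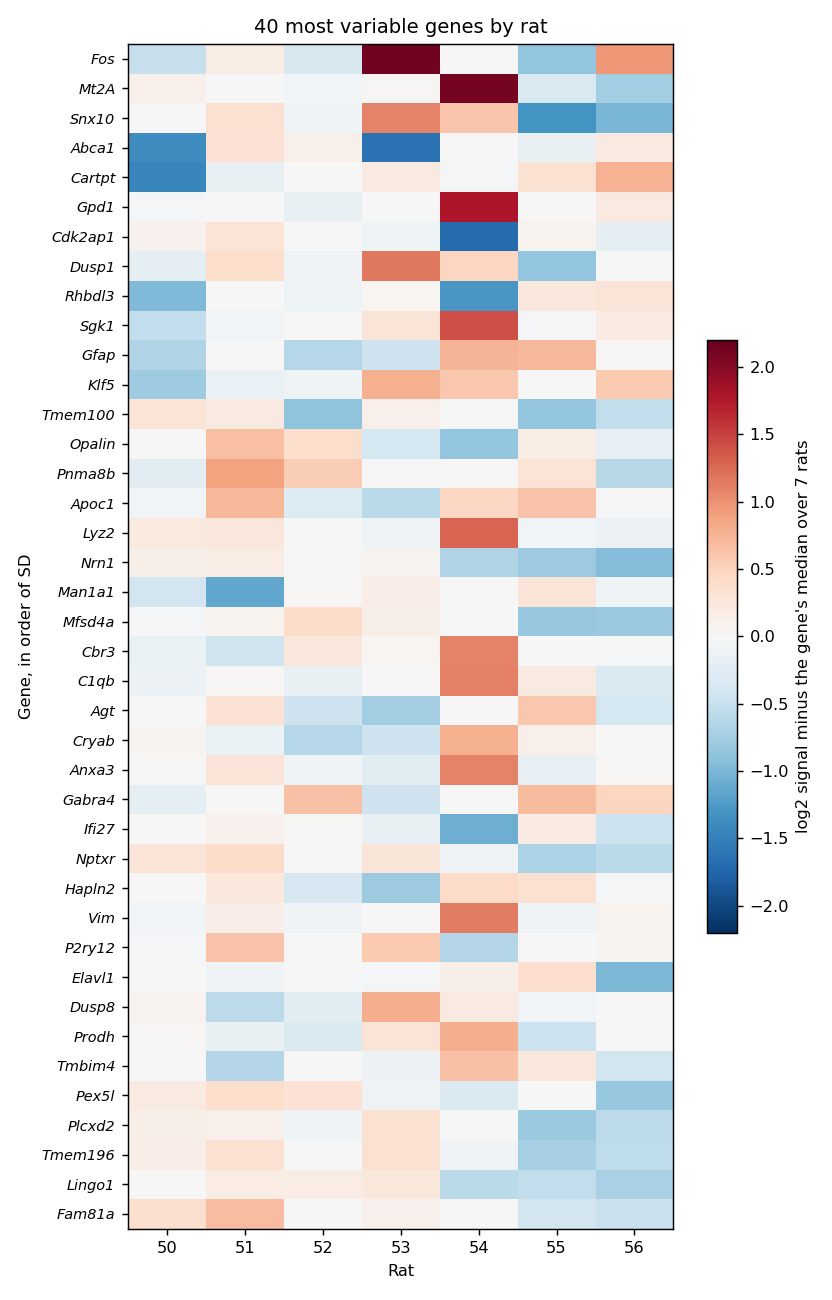
Log2 signal minus the median of the gene over 7 rats (colour, red above and blue below) for the 40 most variable genes in order of their SD (rows) in each rat (columns). Rat 54 has the highest value of 13 genes, Fos and Dusp1 are highest in rat 53, and Nrn1, Nptxr, Plcxd2 and Tmem196 are lowest in rats 55 and 56.

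Pairs of genes with shared roles were tested for correlation over the 7 rats, with two-sided exact permutation tests over all 5040 pairings and Benjamini-Hochberg adjustment over 13 pairs. Each point is 1 array, so both genes of a pair share its RNA. The pairs were listed with earlier results of these data known. By Pearson's r, 7 of the 13 passed an adjusted p of 0.05, and 5 did by Spearman's rho.

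The myelin genes Mbp and Mobp had the closest relation (r = 0.98, exact permutation p = 0.00079, adjusted p = 0.0077; rho = 0.96, p = 0.0028, adjusted p = 0.018). Without the 2 rats farthest from the median of Mbp r was 0.97. Drd1 and Drd2, which lie in different spiny neurons, also moved together (r = 0.84, exact permutation p = 0.0024, adjusted p = 0.0077; rho = 0.96, p = 0.0028, adjusted p = 0.018), with r = 0.87 without rats 51 and 55. Drd2 and Penk gave r = 0.87 (exact permutation p = 0.0036, adjusted p = 0.0077; rho = 0.93, p = 0.0067, adjusted p = 0.022) and 0.79 without those rats. For Drd1 and Tac1, r was 0.95 (exact permutation p = 0.0020, adjusted p = 0.0077) and 0.75 without them, and rho was 0.79 (p = 0.048, adjusted p = 0.089). The pair Drd1 and Drd2 no longer passed without rat 51, 55 or 56 (adjusted p = 0.051, 0.099 and 0.054, exact permutation) or with the median of each gene's probe sets (0.053), and Drd2 and Penk not without rat 51 or 55 (0.066 and 0.090). Mbp and Mobp missed the threshold after quantile normalization (r = 0.76, adjusted p = 0.068, exact permutation).

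Slc17a7 and Neurod2, both of cortical neurons, gave r = 0.94 (exact permutation p = 0.0030, adjusted p = 0.0077; rho = 0.93, p = 0.0067, adjusted p = 0.022) and 0.83 without rats 55 and 56. Slc17a7 against Ppp1r1b gave r = -0.80 (exact permutation p = 0.031, adjusted p = 0.050; rho = -0.79, p = 0.048, adjusted p = 0.089), which narrowly missed the threshold, and r was -0.15 without rats 55 and 56. The relation therefore rests on these 2 rats, and it passed without rat 50 (r = -0.91, adjusted p = 0.018, exact permutation) and after quantile normalization (0.048). With the median of each gene's probe sets, Slc17a7 and Neurod2 gave r = 0.88 and an adjusted p of 0.053 (exact permutation).

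Fos and Arc gave r = 0.93 (exact permutation p = 0.0032, adjusted p = 0.0077; rho = 0.89, p = 0.012, adjusted p = 0.032) and 0.68 without rats 53 and 56. Fos and Egr1 gave r = 0.83 (exact permutation p = 0.026, adjusted p = 0.048; rho = 0.57, p = 0.20, adjusted p = 0.26), which fell to 0.51 without those rats and so rests on them. Fos and Arc did not pass without rat 53 (adjusted p = 0.099, exact permutation), and Fos and Egr1 not without any 1 of rats 51 to 56 (0.059 to 0.35). Neither pair passed with the median of each gene's probe sets (0.40 for both), which takes in the dim second probe set of Fos.

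The other 5 pairs did not pass by either measure. They were Ppp1r1b and Rgs9 (r = 0.63, exact permutation p = 0.14, adjusted p = 0.20; rho = 0.75), Per1 and Dbp (r = 0.23, exact permutation p = 0.60, adjusted p = 0.65; rho = -0.04), and Sst and Npy (r = -0.21, exact permutation p = 0.66, adjusted p = 0.66; rho = 0.07). Chat and Slc5a7 gave r = 0.33 (exact permutation p = 0.48, adjusted p = 0.57; rho = 0.32) and Ttr and Enpp2 r = -0.52 (exact permutation p = 0.24, adjusted p = 0.31; rho = -0.71). With 7 rats these values leave wide room for a relation in either direction.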

How the data were processed

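Gene expression was measured in dorsal striatum of 56 rats, of which the 7 undrugged sham rats are described. MAS5 made the signals, per the submitters' processing notes; its version and scaling target are not given in the sources used here. The deposited values are log2 signals. Raised to the power of 2 they have a trimmed mean (2% off each end) of 150.04 on each of the 7 arrays, so the authors had scaled the arrays to a common level, and they were used as deposited. Detection calls were not used here, and precision is limited by having 7 arrays.

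Of 31099 probe sets 57 are controls and were left out. Symbols came from the platform annotation: 20826 probe sets had 1 symbol, 436 several and 9780 none, and only the first were named. By gene number 99.7% matched the current rat gene table and 0 symbols changed. Where a gene had several probe sets (4525 of 14217 genes), the brightest was used.

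Means, SDs and percentiles were computed with Python 3.11.15, numpy 2.4.6, pandas 2.3.3 and scipy 1.17.1, and tested on simulated data. The 44 gene lists hold 676 genes, of which 597 had a probe set of their own, and a gene can be in more than 1 list. Of 14 gene pairs listed, the globin pair Hba-a2 and Hbb was not run, since Hba-a2 has no probe set of its own. Members, lists, pairs and thresholds were chosen with earlier results of these data known. Named genes were, per list, up to 5 of the brightest and up to 4 of the dimmest members and those with an SD in the top 5% of their signal class, plus the main receptors, peptides and enzymes of spiny neurons, the 20 brightest genes, the 40 most variable genes and the gene pairs. Not all genes the rule allows are printed, and single list members outside it were named after their values were seen. Alternatives were the median of a gene's probe sets, quantile normalization of the 7 arrays, 16 added to the unlogged signal, a dim threshold at the 75th percentile of the off-tissue list, other signal limits, the median absolute deviation, only probe sets with a plain suffix, and leaving out each rat. No comparison between groups was made. Separate extraction per rat is stated in the labels, so the spread includes differences between animals as well as technical ones.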

Additional observations from a re-analysis of the deposited data

Results flagged for a closer look

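Genes were picked out where 1 rat lay apart from the other 6, that is, where its gap to the nearest rat, as a share of the whole range of 7, passed the Dixon limit for 7 values. Of 245 genes named in the text, 23 did so (9.39%), against 362 of all 5687 genes ranked by spread (6.37%), and about 1 in 20 groups does so by chance. Rat 54 accounted for 13 of them, rats 50 and 51 for 3 each, rat 52 for 2, rats 53 and 56 for 1 each, and rat 55 for 0. Of these genes, C1qb, Cartpt, Cdk2ap1, Elavl1, Gpd1, Lyz2, Mt2A, Sgk1 and Vim had been chosen for a large spread. Plac8, Slfn4, Sult1a1, S100a8 and S100a9 were named after their values were seen. Kcnj2, Slc18a3 and Cd79b are dim, and the 5687 ranked genes leave dim genes out. The shares are therefore not alike, and neither the excess nor the count for rat 54 was tested.

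Rat 54 was highest for Sult1a1, a sulfotransferase (share 0.823; 8.90 against a mean of 6.29 in the others), Vim (0.822; 9.76 against 8.63), Gpd1 (0.813; 10.51 against 8.74) and Slfn4, a gene of myeloid cells (0.813; 7.36 against 4.46). It was also highest for Lyz2 (0.740), Mt2A (0.700; 11.06 against 8.79), Plac8 (0.695; 7.67 against 4.18), S100a9 (0.654), C1qb (0.631; 8.59 against 7.42), S100a8 (0.584) and Sgk1 (0.576; 10.49 against 9.04). It was lowest for the B cell gene Cd79b (0.778), which is dim, and for Cdk2ap1 (0.750; 7.63 against 9.35).

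Rat 51 was lowest for the channel genes Kcnd2 (0.694; 9.92 against 10.37), Scn4b (0.586; 11.99 against 12.23) and Cacna2d3 (0.571; 10.22 against 10.45). Rat 50 was lowest for Tef (0.660; 9.24 against 9.49), Kcnj2 (0.583), which is dim, and Cartpt (0.574; 6.26 against 7.87). Rat 52 was highest for Glrb (0.613; 10.20 against 9.93) and Sst (0.573; 8.27 against 7.90). Slc18a3, the vesicular acetylcholine transporter, was lowest in rat 53 (0.895; 1.84 against 4.53), and Elavl1 in rat 56 (0.665; 8.63 against 9.69). None of these differences was tested beyond the Dixon limit.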

How the results depend on the processing

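Counts of bright and dim genes by class were steady: of 147 recounts over the alternatives, 145 stayed within 1.5 times the reported count. With the median of a gene's probe sets in place of the brightest, bright channels fell to 13 and dim transcription factors rose to 8. The ranking for variation depended more on its settings. Genes with an SD above 0.5 numbered 25 with the median of probe sets, 9 above the 80th percentile of signal and 2592 with no limit on low signals, where the median SD was 0.194. Of the 40 most variable genes, 15, 18 and 0 were shared under these 3 settings and 17 with the median absolute deviation; leaving out a rat kept 25 to 36, and 10 genes stayed under every leave-out. With fewer or more genes eligible the first numbers follow from the limit itself; the cause of the others was not tested.

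Of 130 recomputed gene pair correlations 110 stayed on their side of the threshold, and no pair that passed changed its sign. With the median of probe sets the exact permutation test was missed by Drd1 and Drd2 (r = 0.86), Fos and Egr1 (0.50), Fos and Arc (0.49) and Slc17a7 and Neurod2 (0.88), and after quantile normalization by Mbp and Mobp (0.76). Slc17a7 and Ppp1r1b passed after quantile normalization (r = -0.82) and with 16 added (-0.80). Leaving out each rat gave ranges of r of 0.76 to 0.92 for Drd1 and Drd2, 0.82 to 0.93 for Drd2 and Penk, 0.51 to 0.93 for Fos and Egr1, 0.81 to 0.98 for Fos and Arc, and -0.91 to -0.71 for Slc17a7 and Ppp1r1b. The causes were not tested. Of 590 recomputed gene means 556 moved by less than 1 SD. With the median of probe sets 29 of 59 moved by more, for example Adcy5 from 9.23 to 5.30, Cnr1 from 11.09 to 8.50 and Pdyn from 9.97 to 8.03, and 15 of 59 changed their signal class; with 16 added, 5 of 59 moved. No paired analysis was possible because only 1 group was described and rat numbers are not shared between groups. Dim signals limit the profile: at an SD of 0.74 a single dim gene shows little about differences between rats.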

Other observations

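Genes below the signal limit used for the ranking also differed between rats. They were chosen after their values were seen, from the largest SDs among genes that were not dim, and are given as values. Car3, carbonic anhydrase 3 of muscle and fat cells, was 8.95 in rat 50 and 7.87 in rat 52 and between 4.67 and 5.16 in the other 5 rats. Plac8, Slfn4 and Sult1a1 were highest in rat 54, at 7.67, 7.36 and 8.90, and reached at most 4.94, 4.76 and 6.53 in the others. Sncg, gamma-synuclein, fell into a high set of rats 50, 51 and 54 (7.41 to 7.86) and a low set of the other 4 (5.59 to 6.06). Pxmp4, a peroxisomal membrane protein, was 4.87 to 5.40 in rats 54, 55 and 56 and 6.84 to 7.12 in the other 4. Setd1b was 5.53 to 5.88 in rats 50, 53 and 54 and 7.52 to 8.25 in the rest.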
